A study of Arabidopsis thaliana with 8 samples.

Results

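Transcripts of 3 genes for protein folding and turnover in organelles were examined, each measured by 1 probe. Cpn60beta3 (locus AT5G56500) encodes a beta subunit of the plastid chaperonin, AT1G68660 the Clp adaptor ClpS1 of plastids, and AT5G06410 the co-chaperone HscB, which acts in the assembly of iron-sulfur clusters. They are the 3 probes whose platform annotation gives exactly 1 of these genes, out of 692 probes with a single gene name and 3439 probes in all. No probe annotated with several genes lists any of the 3, and whether a probe also binds transcripts of related genes, such as other Cpn60 beta subunits, was not tested. The RNA was total RNA of the Arabidopsis tic40 mutant and of WT plants, both in ecotype Columbia 0, with 4 arrays per genotype numbered 1 to 4. The mutant is impaired in the import of proteins across the inner chloroplast envelope, and the comparison asks which transcripts differ in it. The labels used here give no tissue, age, growth condition or tic40 allele, and nothing in them ties a sample to a plant or a culture. The p-values below therefore reflect how far these arrays scatter, and that scatter may be technical.

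Most plastid proteins are made in the cytosol and cross the envelope unfolded. In the stroma, the chaperonin is a barrel built of alpha and beta Cpn60 subunits. It folds a subset of plastid proteins in an enclosed cavity, Rubisco subunits among its best known clients. The stromal Clp protease degrades proteins that its chaperone ring unfolds, and ClpS1 binds selected substrates and hands them to that ring. HscB carries a J domain, which stimulates the ATPase of a partner heat shock protein while an iron-sulfur cluster is passed from its scaffold to a recipient protein, a process best known from mitochondria.

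Values are intensities on a relative scale. The deposited medians of WT samples 1 and 2 (0.361 and 0.354) lay below those of the other 6 arrays (0.559 to 0.604). Intensities were therefore read under 3 scalings: as deposited, with each array centred on its median, and after quantile normalisation. Quantile normalisation gives every array the same distribution apart from exact zeros, and is the scale meant below unless another is named. The log2 difference tic40 minus WT, fitted with limma across 3318 probes, had a median over all probes of 0.32 as deposited, -0.02 with median centring and -0.06 after quantile normalisation. After quantile normalisation the arrays of a WT pair (1 and 2, or 3 and 4) correlated across probes at 0.946 to 0.947, but only at 0.707 to 0.722 between the pairs. The tic40 arrays also paired, though less sharply. Their r was 0.960 for samples 1 and 2 and 0.975 for samples 3 and 4, against 0.934 to 0.940 between the pairs. The main test counts the 4 arrays of a genotype as separate samples. The mutant arrays were closer to WT samples 1 and 2 (r of 0.874 to 0.907) than to WT samples 3 and 4 (r of 0.739 to 0.800), so WT samples 3 and 4 stood apart in profile and WT samples 1 and 2 in their median. Results are given with the values of both pairs for this reason.

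The 3 genes lay on opposite sides of WT. Cpn60beta3 was higher in every tic40 array than in every WT array, whereas AT1G68660 and AT5G06410 were lower in every tic40 array than in every WT array. Separation of the 4 tic40 from the 4 WT values was seen at 21.8% of all tested probes (8.35% with tic40 higher and 13.5% with tic40 lower). In the limma test with Benjamini-Hochberg adjustment over all probes, at an adjusted p under 0.05, both lower genes passed and Cpn60beta3 did not. The same test called 7.69% of all probes, 2.32% higher and 5.36% lower. In RNA from whole samples, fewer cells of a type and less RNA per cell cannot be told apart.

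**Figure D1:**
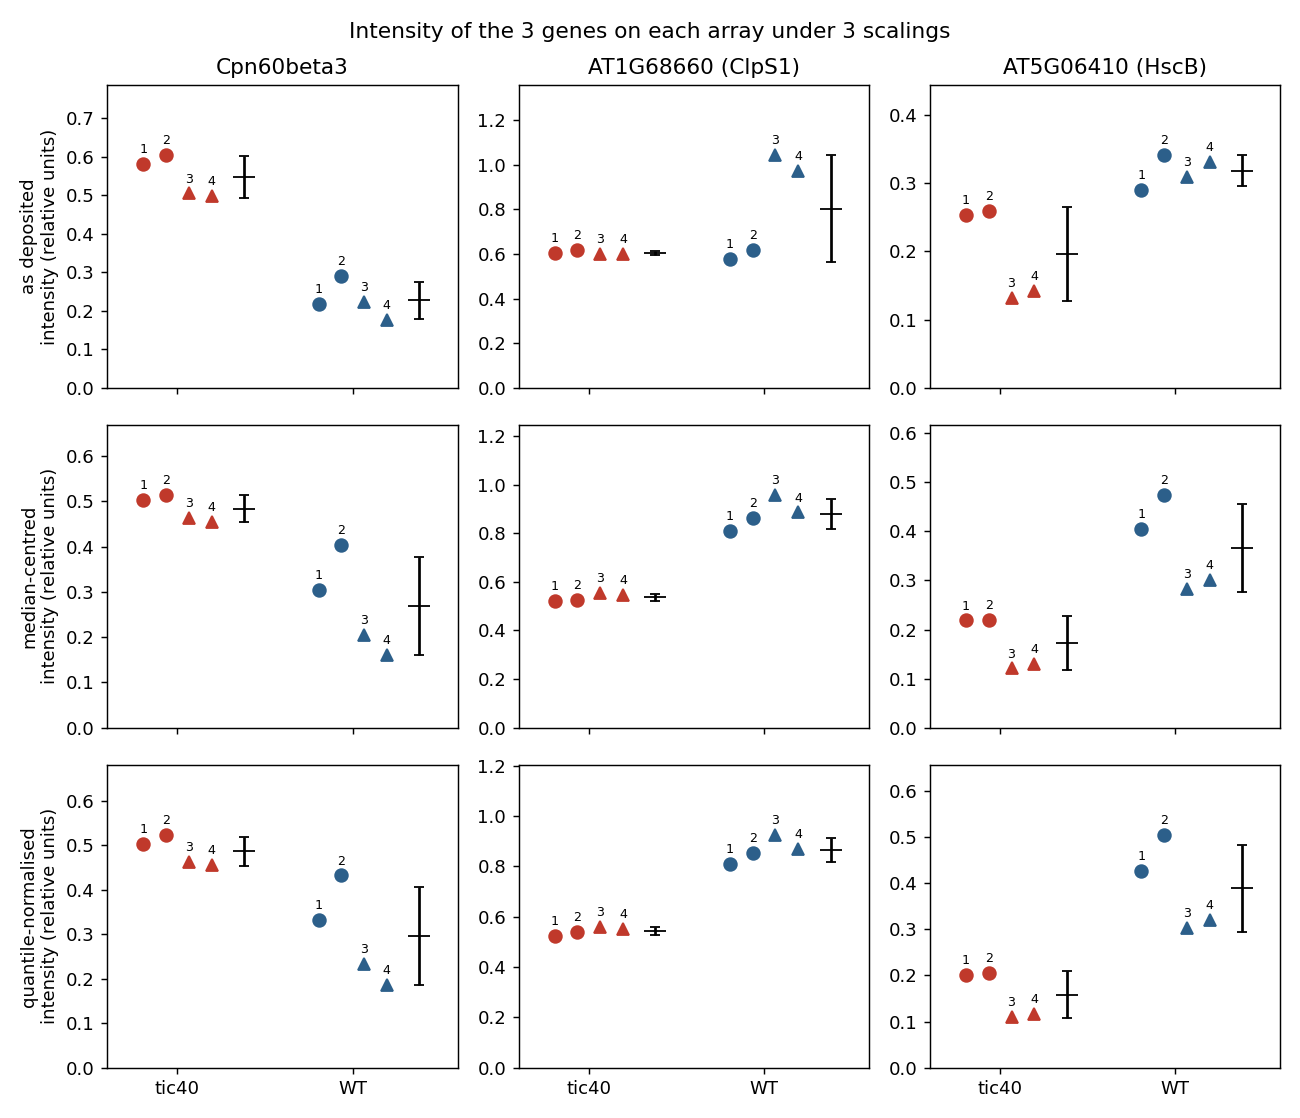
Intensity (relative units, linear axis from 0) of the 3 genes on each array, with 1 column of panels per gene and 1 row per scaling. Numbers are sample numbers, circles mark samples 1 and 2, triangles samples 3 and 4, and the black mark with bars is the mean ± SD of 4 arrays; the only panel in which the genotypes overlap is AT1G68660 as deposited.

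Cpn60beta3, the chaperonin subunit, had normalised intensities of 0.504, 0.524, 0.462 and 0.456 in tic40 samples 1 to 4, against 0.333, 0.433, 0.234 and 0.186 in WT samples 1 to 4. The tic40 values were close to each other, and the spread lay in WT, where samples 3 and 4 were the lowest. The mean was 0.487 ± 0.0328 in tic40 and 0.296 ± 0.109 in WT (SD, n = 4 each). The log2 difference was 0.79 with an SE of 0.26 (95% interval 0.19 to 1.39), a 1.73-fold higher level, and it did not pass the limma test (adjusted p = 0.111, unadjusted p = 0.0165).

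Under the other scalings the Cpn60beta3 difference was larger. As deposited, the tic40 arrays read 0.582, 0.605, 0.505 and 0.499 and the WT arrays 0.219, 0.291, 0.223 and 0.176. The 4 WT values lie closer together on that scale, since the low medians of WT samples 1 and 2 are not scaled up. The log2 difference as deposited was 1.29 (SE 0.20), a 2.44-fold rise that passed (limma adjusted p = 0.0127), on a scale on which 9.37% of all probes were called higher. With median centring it was 0.94 (limma adjusted p = 0.0951), where 2.35% of all probes were called higher. The tic40 and WT arrays stayed apart under both scalings, as did 22.5% of all probes with tic40 higher as deposited and 8.5% with median centring.

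The size of the Cpn60beta3 difference depended on the sample pair. Fitted in samples 1 and 2 alone it was 0.44 (limma adjusted p = 0.125), and in samples 3 and 4 alone 1.14 (adjusted p = 0.00735). Those fits of 2 against 2 arrays see only the spread within a pair and called 13.5% and 25.3% of all probes higher. Whether the pairs differ in their Cpn60beta3 difference was not tested. As deposited, the differences within the pairs were 1.24 and 1.34. Same-numbered tic40 and WT arrays differed by 0.60, 0.28, 0.98 and 1.29 on the log2 scale for numbers 1 to 4. WT sample 2 was the WT array nearest to tic40, so leaving it out enlarges the difference. Without it the difference was 0.99 (limma adjusted p = 0.0430), in a fit that called 75 probes higher. This was the only 1 of 8 left-out fits in which Cpn60beta3 passed, and the others had adjusted p of 0.105 to 0.242.

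AT1G68660, the ClpS1 adaptor that selects Clp substrates, had normalised intensities of 0.525, 0.538, 0.558 and 0.550 in tic40 samples 1 to 4, against 0.809, 0.855, 0.926 and 0.870 in WT samples 1 to 4. On this scale it was the most even of the 3 genes within each genotype, with samples 1 and 2 slightly below samples 3 and 4 in both. Its log2 levels in samples 1 and 2 minus those in samples 3 and 4 were -0.06 in tic40 and -0.11 in WT. The mean was 0.543 ± 0.0148 in tic40 and 0.865 ± 0.0480 in WT (SD, n = 4 each), and AT1G68660 fell by 0.67 on the log2 scale (SE 0.12, 95% interval -0.94 to -0.40, limma adjusted p = 0.0208), to 62.8% of the WT level.

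The fall of AT1G68660 was of like size in both sample pairs after quantile normalisation, -0.65 in samples 1 and 2 (limma adjusted p = 0.0192) and -0.70 in samples 3 and 4 (adjusted p = 0.00580), fits that called 17% and 34.9% of all probes lower. It was -0.71 with median centring, where it also passed (limma adjusted p = 0.0208), as did 4.79% of all probes in that direction. As deposited, however, the tic40 arrays read 0.603, 0.618, 0.602 and 0.600 and the WT arrays 0.579, 0.620, 1.05 and 0.972. On that scale WT samples 1 and 2 were level with tic40 and only WT samples 3 and 4 lay above it, and the difference of -0.36 did not pass (adjusted p = 0.370), on a scale on which 1.39% of all probes were called lower. The deposited differences within the pairs were 0.03 and -0.75, so the call for AT1G68660 changed with the scaling, and the WT arrays that overlap tic40 as deposited are samples 1 and 2.

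When same-numbered arrays were paired in a replicate block, the difference of AT1G68660 did not pass (limma adjusted p = 0.0673), in a fit that called 0.0301% of all probes lower. It also did not pass without tic40 sample 1, 2, 3 or 4 (limma adjusted p = 0.0713, 0.0709, 0.0645 and 0.0660), and it passed without each of the WT arrays. Over all probes, the fits without tic40 sample 1, 2, 3 or 4 called 40, 43, 47 and 48. Those without WT sample 1, 2, 3 or 4 called 217, 242, 126 and 125, and the main fit called 255. In these 8 fits the log2 difference of AT1G68660 lay between -0.69 and -0.63.

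AT5G06410, the HscB co-chaperone, had the largest fitted difference of the 3 on the quantile-normalised scale. Its normalised intensities were 0.202, 0.205, 0.111 and 0.117 in tic40 samples 1 to 4, against 0.427, 0.505, 0.304 and 0.321 in WT samples 1 to 4. Within each genotype samples 1 and 2 read higher than samples 3 and 4. The step from samples 3 and 4 up to samples 1 and 2 was 0.84 on the log2 scale in tic40 and 0.57 in WT. The mean was 0.158 ± 0.0517 in tic40 and 0.389 ± 0.0946 in WT (SD, n = 4 each), and AT5G06410 fell by 1.33 on the log2 scale (SE 0.28, 95% interval -1.97 to -0.68, limma adjusted p = 0.0300), to 39.9% of the WT level. Only 2.38% of tested probes had a lower fitted difference. The tic40 values were low, at 4.99 to 7.68 times percentile 1 of the values above 0 on the same array. In WT that multiple was 7.33 to 21.8. As deposited it was 3.53 to 6.72 in tic40 and 13.1 to 20.3 in WT.

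After quantile normalisation, same-numbered arrays of AT5G06410 differed by -1.08, -1.30, -1.45 and -1.46 on the log2 scale for numbers 1 to 4. As deposited they differed by -0.20, -0.40, -1.23 and -1.22, with -0.30 in samples 1 and 2 and -1.23 in samples 3 and 4. The replicate block left the difference as it was and gave an SE of 0.14 and an unadjusted limma p of 0.000230. The limma adjusted p = 0.0527 missed the threshold, in a fit that called 5 probes in either direction and 0.0301% of all probes lower. After quantile normalisation the fit in samples 1 and 2 alone gave -1.19 (limma adjusted p = 0.0159) and in samples 3 and 4 alone -1.46 (adjusted p = 0.00259). Those 2 fits see only the spread within a pair and called 17% and 34.9% of all probes lower.

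The scaling changed the call of AT5G06410 too. As deposited, the tic40 arrays read 0.253, 0.259, 0.131 and 0.142 and the WT arrays 0.290, 0.341, 0.309 and 0.331. The genotypes did not overlap there either, as at 3.92% of all probes with tic40 lower (12% with median centring), but tic40 samples 1 and 2 came near to WT, and the difference was -0.76 (limma adjusted p = 0.110). With median centring it was -1.11 (adjusted p = 0.0540). Leaving out any of the 8 arrays ended the call. The limma adjusted p-values were 0.0678, 0.0692, 0.0854 and 0.0864 without tic40 sample 1, 2, 3 or 4. They were 0.0582, 0.0530, 0.0504 and 0.0564 without WT sample 1, 2, 3 or 4. Over all probes these fits called 40 to 48 without a tic40 array and 125 to 242 without a WT array, against 255 in the main fit. The log2 difference of AT5G06410 lay between -1.49 and -1.17 in them.

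**Figure D2:**
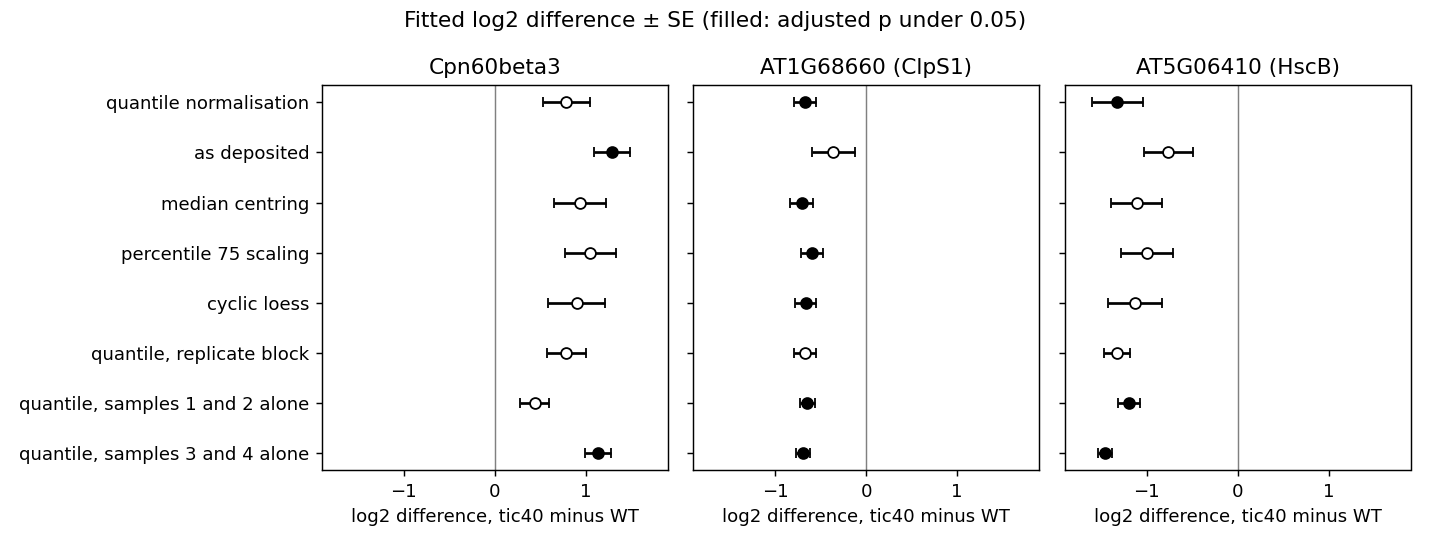
Fitted log2 difference, tic40 minus WT (points, bars are the SE), of the 3 genes under 8 settings, with filled points where the limma adjusted p was under 0.05. Every point of Cpn60beta3 lies above 0 and every point of the other two below 0, while which points are filled changes with the setting.

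The log2 ratio of 2 probes on the same array is the same as deposited and with median centring. It shows how one transcript stood relative to the other in each genotype, not which of them was higher or lower, and it rests on the same values as the differences above. The levels of different probes are not on a common scale, so only the genotypes are compared. The log2 ratio of Cpn60beta3 to AT1G68660 was -0.05, -0.03, -0.25 and -0.26 in tic40 samples 1 to 4, against -1.41, -1.09, -2.23 and -2.47 in WT samples 1 to 4. Its mean was -0.15 ± 0.13 in tic40 and -1.80 ± 0.65 in WT (SD, n = 4 each), a difference of 1.65 with a gap of 0.83 between the nearest tic40 and WT arrays.

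The log2 ratio of Cpn60beta3 to AT5G06410 was 1.20, 1.23, 1.94 and 1.81 in tic40 samples 1 to 4, against -0.41, -0.23, -0.47 and -0.91 in WT samples 1 to 4. This pair separated the genotypes most, by 2.05 on average, with a gap of 1.43. For AT1G68660 over AT5G06410 the log2 ratio ranged between 1.25 and 2.20 in tic40 and between 0.86 and 1.76 in WT. These ranges overlap, and in both genotypes samples 3 and 4 lay above samples 1 and 2. Between same-numbered arrays the ratio was higher in tic40 at all 4 numbers, by 0.26, 0.40, 0.44 and 0.52 for numbers 1 to 4, and no test of that difference was made. After quantile normalisation the 3 mean differences were 1.46, 2.11 and 0.65, with the same separation and the same overlap.

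**Figure D3:**
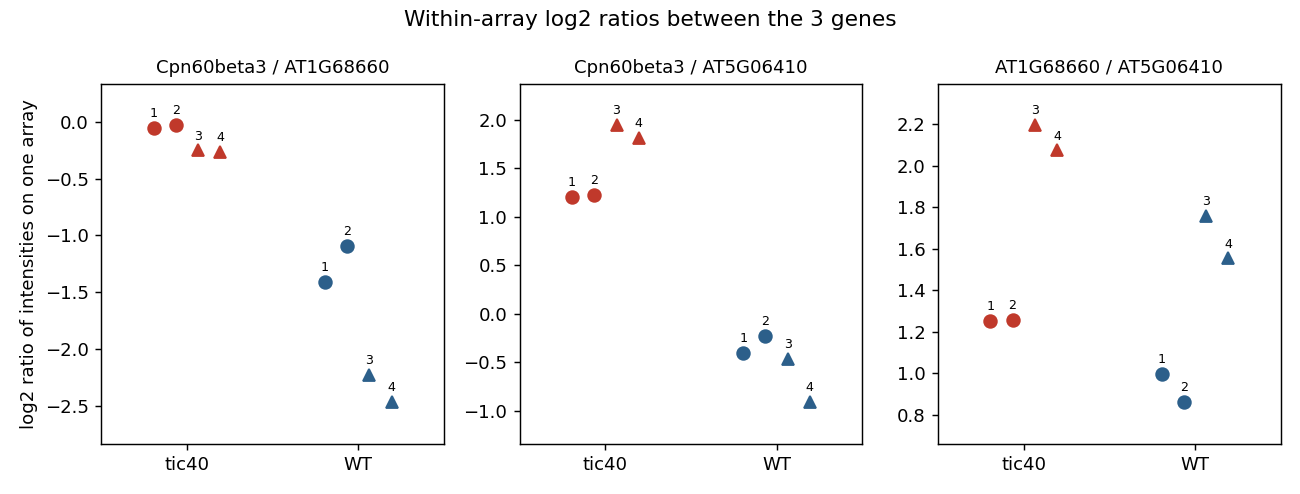
Log2 ratio of the deposited intensities of each pair of genes on the same array (vertical axis, log2 units), by genotype, with sample numbers beside the points, circles for samples 1 and 2 and triangles for samples 3 and 4. Both ratios with Cpn60beta3 on top lie higher on all 4 tic40 arrays than on all 4 WT arrays, and the ratio of AT1G68660 to AT5G06410 overlaps.

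Across the 8 arrays, log2 levels of AT1G68660 and AT5G06410 correlated at r = 0.81, those of Cpn60beta3 and AT1G68660 at -0.80 and those of Cpn60beta3 and AT5G06410 at -0.45. As deposited these values were 0.46, -0.66 and -0.64. They are descriptions over arrays that share the genotype difference and the scaling.

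Among 611 other single-gene probes above 0 on every array, the 3 profiles most like that of Cpn60beta3 were those of AT1G29700 (Pearson r = 0.996 over 8 arrays), AT1G24360 (0.987) and AT5G05400 (0.983). They share its low values in WT samples 3 and 4, and their log2 differences of 1.41, 0.80 and 1.33 did not pass (limma adjusted p = 0.0950, 0.0785 and 0.0904). The profiles most like that of AT1G68660 were those of AT1G09200, a gene for histone H3.1 (r = 0.988), AT5G48440 (0.982) and AT5G38750 (0.975). These 3 also fell, with log2 differences of -1.45, -1.22 and -0.76 (limma adjusted p = 0.00832, 0.00749 and 0.0249), and the H3.1 probe may also read near-identical H3.1 genes.

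The profiles most like that of AT5G06410 were those of AT1G01500 (r = 0.975), AT5G24690 (0.966) and AT1G48570 (0.956). AT1G01500 fell by 0.71 on the log2 scale (limma adjusted p = 0.0264), while AT5G24690 at -0.84 (adjusted p = 0.1002) and AT1G48570 at -0.28 (adjusted p = 0.194) did not pass. The likeness of AT1G48570 was lost on the deposited scale, where r was -0.04, and the other 8 profiles kept r of 0.876 or above there. The genes were chosen for their likeness, so their directions are no support for those of the 3 genes.

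**Figure D4:**
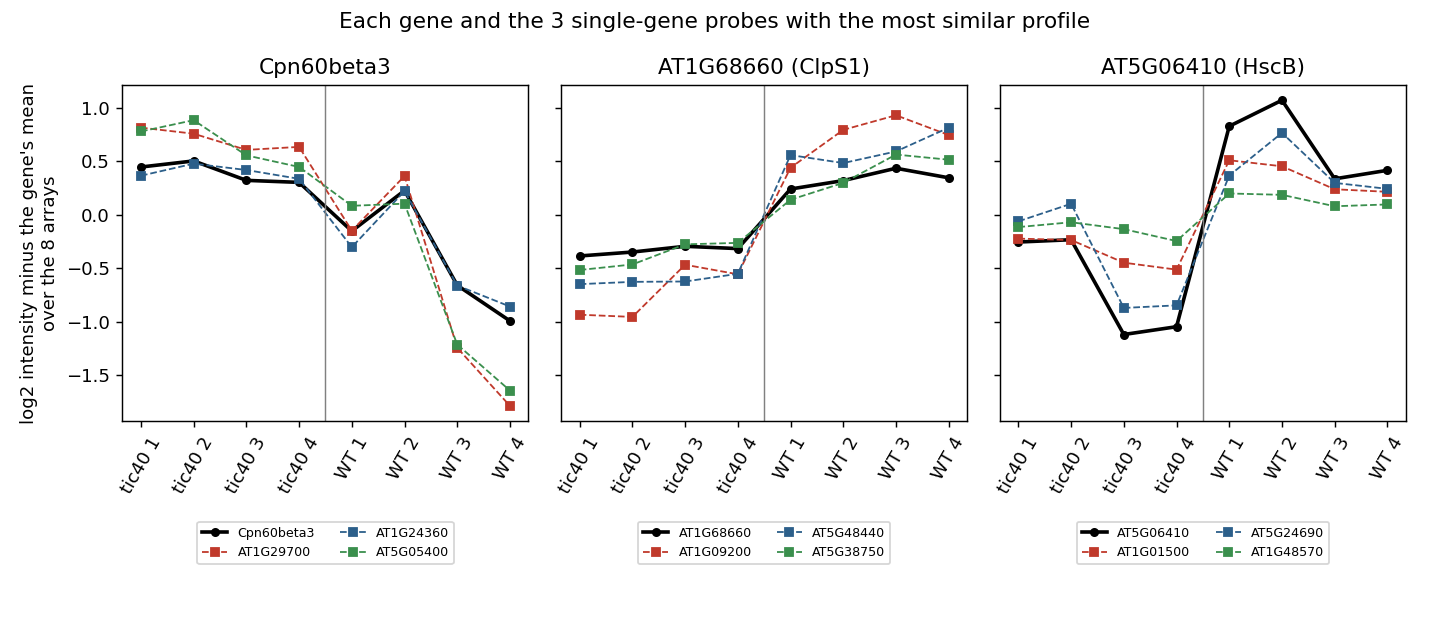
Log2 quantile-normalised intensity minus each gene's mean over the 8 arrays (vertical axis) by array (horizontal axis, tic40 left of the grey line), for each of the 3 genes (black) and its 3 most similar single-gene probes (dashed). The Cpn60beta3 set drops in WT samples 3 and 4, the AT1G68660 set lies below its mean on all tic40 arrays and above it on all WT arrays, and the AT5G06410 set is lowest in tic40 samples 3 and 4.

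Few partners of the 3 genes were measured. Of 131 listed genes for chaperonins, other organelle chaperones, the Clp system, other organelle proteases, iron-sulfur assembly and chloroplast import, 8 had a single-gene probe, the 3 genes included. Of 13 chaperonin genes 2 were measured and 0 passed; of 20 Clp genes 3 were measured and 1 fell, AT1G68660; of 30 iron-sulfur assembly genes only AT5G06410 was measured, which fell. Of 19 chloroplast import genes 0 had a single-gene probe, so the level of TIC40 itself is not analysed here. One of the other 5 listed genes, AT5G49840 of the Clp list, was listed at 0 on all 8 arrays. None of the remaining 4 passed (their limma adjusted p-values were 0.132 to 0.479), against 7.69% of all probes called.

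Cpn60beta4, the other measured plastid chaperonin subunit, had normalised intensities of 0.425, 0.348, 0.357 and 0.361 in tic40 samples 1 to 4, against 0.308, 0.284, 0.287 and 0.280 in WT samples 1 to 4. It was higher on every tic40 array than on every WT array, as were 3 of these 4 genes (AT3G47650 and SPPA by small gaps) and 8.35% of all probes. Its WT values were even across both pairs. Its log2 difference was 0.36 (SE 0.13, limma adjusted p = 0.132). As deposited it was 0.87 and passed (adjusted p = 0.0397), and with median centring it was 0.52 (adjusted p = 0.0558). Both chaperonin genes thus passed on the deposited scale, on which 9.37% of all probes were called higher and the median probe stood 0.32 higher in tic40.

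The other 3 measured genes were uneven in WT. AT3G47650, of the list of other chaperones, averaged 2.61 ± 0.0576 in tic40 and 1.80 ± 0.723 in WT (SD, n = 4 each), and in WT samples 1 and 2 averaged 2.42, samples 3 and 4 only 1.17. Its log2 difference was 0.63 (limma adjusted p = 0.217). AT2G03390, of the Clp list, averaged 1.11 ± 0.103 in tic40 and 0.905 ± 0.447 in WT, a log2 difference of 0.43 (limma adjusted p = 0.479). Its WT pairs ran the other way, at 0.522 for samples 1 and 2 and 1.29 for samples 3 and 4, so the log2 difference was 0.97 in samples 1 and 2 and -0.11 in samples 3 and 4. SPPA, a signal peptide peptidase of the protease list, averaged 1.13 ± 0.0879 in tic40 and 0.879 ± 0.153 in WT, a log2 difference of 0.37 (limma adjusted p = 0.209). In WT its samples 1 and 2 averaged 0.749 and its samples 3 and 4 1.01.

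**Figure D5:**
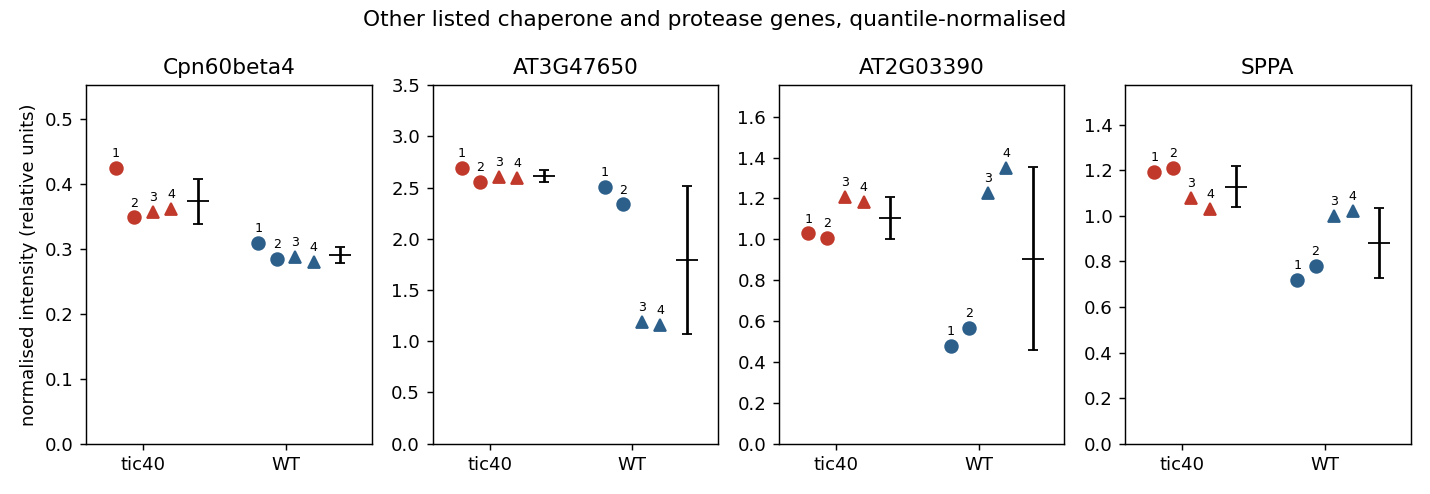
Quantile-normalised intensity (relative units, linear axis from 0) of the 4 other listed genes with signal, by genotype, with sample numbers, circles for samples 1 and 2, triangles for samples 3 and 4, and the mean ± SD of 4 arrays in black. AT3G47650 and AT2G03390 split in WT by sample pair, in opposite directions, and tic40 sample 1 lies above the other tic40 arrays for Cpn60beta4.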

How the data were processed

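The authors deposited 1 table of intensity values for 3439 probes on 8 one-colour arrays. From the values these are linear and never negative, on a relative scale; how they were scanned, background-corrected and scaled is not given in the sources used here. Gene names came from the platform annotation and were updated through the TAIR10.1 gene table; no coordinates or sequences are printed, since the probes' build is not stated. Array number limits the precision.

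Here the arrays were quantile-normalised (log2 medians of the deposited columns spanned 0.716). Exact zeros were set to percentile 1 of that array's values above 0. After quantile normalisation that value was 0.0583 and 0.0665 in WT samples 1 and 2 and 0.0147 to 0.0311 on the other arrays. None of the 3 genes had a zero. The 121 probes at 0 on every array were left out, and 3318 were fitted with limma 3.58.1 in R 4.3.3 (lmFit, eBayes; genotype only; two-sided; Benjamini-Hochberg; call at adjusted p under 0.05). The procedure was tested on simulated data with independent noise on each array. Those data held no sample pairs, so the test does not cover the effect of the pairs. Folds were computed from the fitted log2 difference, tic40 minus WT.

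The labels number the samples 1 to 4 in both genotypes. Deviations from the genotype means correlated between same-numbered samples at 0.306, 0.310, 0.261 and 0.254. The main fit used genotype only and did not pair them. A replicate block, which pairs samples of one number, was an alternative fit and is reported where it changes a call. The genes named are the 3 genes, every listed gene with a single-gene probe, and per gene the 3 probes most correlated with it. The genes, lists and tests were chosen with earlier results of these data known. Alternatives covered scaling, floor, filter, pseudocount (0.1), variance trend, replicate block, sample pairs and each array left out.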

Additional observations from a re-analysis of the deposited data

Results flagged for a closer look

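The value of 1 gene on 1 array stood far from its values on the other arrays of that genotype. Cpn60beta4 had a normalised intensity of 0.425 in tic40 sample 1, against 0.348 to 0.361 in the other 3 tic40 samples. The gap to the nearest of them was 0.830 of the whole range, just above the critical value for 4 samples. Of the 14 sets of 4 arrays examined (7 genes in 2 genotypes), this was the only one past the critical value. Chance takes about 1 in 20 of such sets past it, so 1 among 14 can arise by chance. None of the 3 genes described above had such a value.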

How the results depend on the processing

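Of 20 alternative settings, all kept the direction of each of the 3 genes, but the settings are not independent. The replicate block, common floor, filter on zeros, variance trend and averaged pairs leave the fitted difference unchanged. Fits with an array left out share most of their arrays. Within samples 1 and 2 as deposited, which is not among these settings, AT1G68660 differed by 0.03. The percentile 75 and cyclic loess scalings were chosen after seeing the data. AT1G68660 passed in 13 settings, AT5G06410 in 6 and Cpn60beta3 in 3. The limma log2 difference of Cpn60beta3 passed as deposited (1.29) and in samples 3 and 4 alone (1.14), and lay between 0.58 and 0.99 with each array left out. That of AT1G68660 did not pass as deposited (-0.36), with the replicate block or with sample pairs averaged (-0.67 in both), and lay between -0.69 and -0.63 with each array left out. That of AT5G06410 did not pass as deposited (-0.76), with median centring (-1.11), percentile 75 scaling (-1.001), cyclic loess (-1.13), the replicate block or averaged pairs (-1.33 in both), and lay between -1.49 and -1.17 with each array left out. Averaging samples 1 and 2, and 3 and 4, leaves 2 values per genotype. It gave 0 limma calls over all probes, with 184 at an unadjusted p under 0.05. The count of called probes was 255 (77 higher, 178 lower), against 357 as deposited (311 higher, 46 lower), 234 with percentile 75 scaling (119 higher, 115 lower), 5 with the replicate block, 154 with cyclic loess, 1012 in samples 1 and 2 alone and 2000 in samples 3 and 4 alone. It was 40 to 48 without a tic40 array and 125 to 242 without a WT array. The cause of these changes was not tested.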
